A study of Mus musculus with 12 samples.

Results

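The Il6 and Il12b loci were described by every open-chromatin peak in 2 windows of the mouse genome (mm9 build): 120 kb at Il6, chr5:30270000-30390000, and 90 kb at Il12b, chr11:44170000-44260000. Peaks of the 12 deposited peak lists that overlapped by at least 1 bp were chained into regions, and every region touching a window was a member, whatever its values. This gave 27 of the 115231 regions of the series and 192 of its 886143 peaks: 13 regions with 88 peaks at Il6 and 14 regions with 104 peaks at Il12b. Regions are numbered within each window from its low-coordinate end. The windows were drawn with earlier results of these data known, but no region was picked or dropped by its values. Annotation of the mm9 build was not used here, so no region is placed in a promoter, exon, intron or UTR.

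The lists come from ATAC-seq, in which the transposase Tn5 inserts adapters into accessible DNA, on macrophages grown from bone marrow of female C57BL/6 mice. The mice were wild type (WT) or lacked lincRNA-EPS (KO), a long noncoding RNA that the series title names as a brake on inflammation. All 6 groups shared culture for 9 days with 20% L929 macrophage supplement and transposition of 50000 cells per reaction, and the groups differed in genotype and in time, 0, 2 or 6 h, with lipopolysaccharide (LPS, from the bacterial outer membrane) at 100 ng/ml. Each group had 2 libraries, so each time had 4 and each genotype 6. Whether the libraries of 1 group stem from separate mice or cultures is not in the labels, so the p-values reflect only the spread among these libraries, and that spread may be technical. Peak names inside the lists that the labels place at 2 h give 1 h, so the true time of these 4 libraries may be 1 h. How the knockout allele was made is not stated in the labels, and the deleted locus was not analysed here.

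Il6 encodes interleukin 6, a cytokine that macrophages secrete in inflammation and that drives the acute-phase response of the liver. Il12b encodes p40, the subunit that IL-12 and IL-23 share, through which macrophages steer T cells. Both genes are induced late by LPS compared with immediate early genes: NF-κB and C/EBP factors act at Il6, NF-κB, C/EBP and ETS factors act at Il12b, and both genes are known for needing nucleosome remodelling before full transcription.

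The promoters of the genes are shown because those factors act there and because the windows were drawn around the genes. RefSeq's GRCm38.p6 table held an entry for both. Each line below gives the 250 bases before the annotated start on the gene's + strand, 5′ to 3′, with motif matches in capitals.

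Il6: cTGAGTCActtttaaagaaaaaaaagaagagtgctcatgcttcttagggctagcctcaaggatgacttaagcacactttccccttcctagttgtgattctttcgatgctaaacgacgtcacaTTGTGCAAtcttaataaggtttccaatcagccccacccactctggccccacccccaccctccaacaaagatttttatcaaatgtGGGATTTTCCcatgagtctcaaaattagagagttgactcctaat

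Il12b: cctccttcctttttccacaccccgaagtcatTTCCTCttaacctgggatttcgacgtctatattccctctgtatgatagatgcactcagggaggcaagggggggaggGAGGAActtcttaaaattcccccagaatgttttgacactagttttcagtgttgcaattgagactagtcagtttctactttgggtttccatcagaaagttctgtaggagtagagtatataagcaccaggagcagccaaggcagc

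Searched on both strands were the NF-κB consensus, the AP-1 motif TGANTCA, the C/EBP motif TTGCNNAA, the ETS core GAGGAA and the TATA box TATAAA. The Il6 promoter held an NF-κB match, GGGATTTTCC, 44 bases before the start, an AP-1 match, TGAGTCA, 249 bases before it, and a C/EBP match on the other strand, TTGTGCAA as printed, 128 bases before it. The Il12b promoter held an ETS match, GAGGAA, 143 bases before the start and another on the other strand, TTCCTC as printed, 219 bases before it. No match overlapped another. Of the 32851 promoters in the table, 7.25% held the NF-κB consensus, 6.75% the AP-1, 9.56% the C/EBP, 23.3% the ETS and 12.4% the TATA letters. These matches describe letters in a window. Where the promoters lie among the mm9 regions was not determined. In the RefSeq order Il6 lies between Dnajb6 and Tyms and is overlapped by A230098N10Rik, and Il12b lies between Adra1b and Ublcp1, so a region in a window may belong to another gene.

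The lists held 54771 to 91610 peaks per library. Sequencing depth was not given in the sources used here, and the lowest background coverage recovered from the deposited values, a measure of relative depth, ran from 1.43 reads in KO 0 h replicate 2 to 3.35 reads in KO 6 h replicate 1. A region that a shallow library did not call may still be accessible below its calling limit. The number of regions called per library over the whole genome averaged 61058 at 0 h and 81554 at 6 h, a rise of 33.6%.

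At rest the Il6 window was sparsely open, and by 6 h of LPS it held about as many regions as the Il12b window. At 0 h the Il6 window had 5 regions in WT replicate 1, 5 in WT replicate 2, 5 in KO replicate 1 and 4 in KO replicate 2. At 2 h the same order gave 5, 6, 8 and 6 regions, and at 6 h it gave 11, 10, 12 and 10. Every library at 6 h thus had more regions in the Il6 window than any library at 0 h or 2 h. The mean rose from 4.75 ± 0.50 at 0 h to 10.8 ± 0.957 at 6 h (SD, n = 4 libraries each), a difference of 6 regions or 126% (exact two-sided permutation test with time labels exchanged within genotype, p = 0.000741, adjusted p = 0.00445 over the 6 window tests). With every list cut to its strongest 54771 peaks, the number in the shortest list, the difference was 2 regions, and the call was lost (exact permutation p = 0.0111, adjusted p = 0.0666). The covered length rose with it, from 2.43 ± 0.11 kb to 5.04 ± 0.517 kb. The mean at 2 h was 6.25 ± 1.26 regions, and the difference of 1.5 regions from 0 h did not pass the test (exact permutation p = 0.521, adjusted p = 0.874). This test also exchanged the labels of the 6 h libraries, whose higher counts widen its reference, so it could hardly call a smaller difference at 2 h.

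The Il12b window held more regions per library at rest, and its difference by 6 h did not pass the adjusted test. At 0 h it had 7 regions in WT replicate 1 and 8 in each of WT replicate 2, KO replicate 1 and KO replicate 2. At 2 h the same order gave 7, 7, 7 and 9 regions, and at 6 h it gave 11, 11, 10 and 9. The libraries at 6 h lay above those at 0 h without overlap, while 1 library at 2 h reached the lowest value of 6 h. The mean was 7.75 ± 0.50 at 0 h, 7.5 ± 1.0 at 2 h and 10.2 ± 0.957 at 6 h (SD, n = 4 libraries each). The 6 h difference of 2.5 regions, or 32.3%, had an exact permutation p = 0.0274 and missed the threshold after adjustment (adjusted p = 0.0822), and in the lists cut to equal length it was 0.25 regions (p = 0.8). Its size in percent was close to the 33.6% of the whole genome. The covered length, 3.99 ± 0.301 kb at 0 h and 6.04 ± 0.534 kb at 6 h, did pass (exact permutation p = 0.000741, adjusted p = 0.00222). So did the number of regions from peaks with a −log10 q of at least 5 (exact permutation p = 0.0104, adjusted p = 0.0312). For neither measure was the change over the whole genome computed, so neither is shown to be particular to a window.

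**Figure D1:**
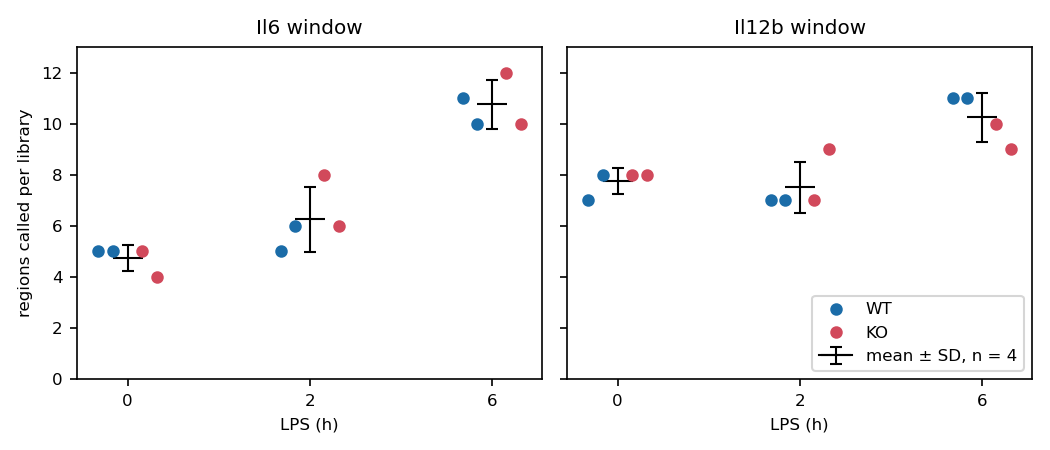
Regions called per library in the Il6 window (left) and the Il12b window (right) against hours of LPS, with 1 point per library, WT in blue and KO in red, and the mean ± SD of 4 libraries in black. In both windows every library at 6 h lies above every library at 0 h, and the Il6 window rises from 4 or 5 regions to between 10 and 12.

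Over both windows, 14 of the 27 regions were called in at least 1 library at 0 h, 17 at 2 h and 25 at 6 h, and 10 were called only at 6 h, 5 in each window. All 13 Il6 regions were called by at least 1 library at 6 h, while Il12b regions 7 and 10 were called by none at that time. The share of all regions that such counts would give was not computed. Regions called per library rose over the whole genome too, averaging 61058 at 0 h, 71202 at 2 h and 81554 at 6 h. These counts are therefore not a trait shown to be particular to the 2 windows. A region counted as gained when all 4 libraries of the later time and none of the 4 at 0 h called it. By 6 h, 5 of the 27 regions (18.5%) were gained, against 5.54% of all regions: 3 of 13 at Il6 and 2 of 14 at Il12b. None was gained by 2 h, a class that held 0.789% of all regions. None was lost by 6 h (0.127% of all regions) or by 2 h (0.00434%). Cut to the strongest 54771 peaks per library, the lists kept 1 gained region, Il6 region 6, and no gained region at Il12b.

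Il6 region 6, chr5:30299275-30299987, was the strongest of the gained regions. The fold, which is the authors' ratio of summit over local background, was 8.30 in WT 6 h replicate 1, 8.78 in WT 6 h replicate 2, 8.42 in KO 6 h replicate 1 and 8.10 in KO 6 h replicate 2. The −log10 q in the same order was 24.7, 24.3, 36.2 and 26.7. None of the 8 libraries at 0 h or 2 h called this region, and at 6 h the WT and KO folds stood within 1 unit of each other. Within each list it ranked at the percentile 67.0, 66.2, 74.9 and 71.5 of −log10 q, so a region in no list at rest stood above most peaks of the 6 h lists. Its summits lay within 76 bp of each other in the 4 libraries, and its mean width was 612 ± 68.1 bp (SD, n = 4).

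The other gained regions at Il6 were weaker and flanked region 6 on its low-coordinate side. Il6 region 4, chr5:30292245-30292593, was called at 6 h only, with a fold of 4.36 and 4.71 in WT replicates 1 and 2 and of 5.43 and 3.93 in KO replicates 1 and 2. Its −log10 q in that order was 5.59, 5.92, 10.3 and 4.53, so it passed narrowly in 1 KO library and more clearly in the other. Il6 region 3, chr5:30276997-30277806, had a fold of 4.01 and 3.46 in WT and of 4.16 and 4.40 in KO at 6 h. Il6 region 3 was already in 1 list at 2 h, KO replicate 1, with a fold of 3.33 and a −log10 q of 5.14. With peaks under a −log10 q of 5 left out, Il6 region 4 no longer counted as gained.

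**Figure D2:**
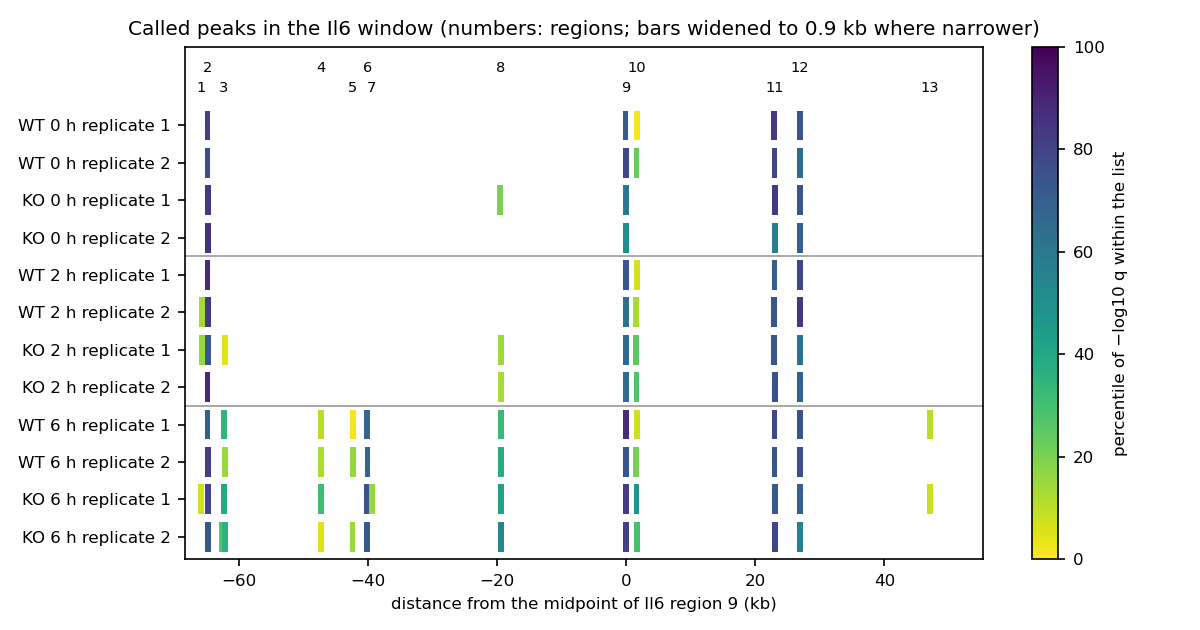
Called peaks in the Il6 window, 1 line per library ordered by time and genotype, against the distance in kb from the midpoint of Il6 region 9; colour gives the percentile of −log10 q within the library's own list and numbers mark the 13 regions. Regions 2, 9, 11 and 12 are filled in every line, and regions 4, 5, 6, 7 and 13 hold peaks only in the 4 lines of 6 h.

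The gained regions of the Il12b window, 4 and 5, lay 936 bp apart and were called in the same 4 libraries. Il12b region 4, chr11:44194106-44194664, had a fold of 5.06 in WT 6 h replicate 1, 4.19 in WT 6 h replicate 2, 4.40 in KO 6 h replicate 1 and 3.40 in KO 6 h replicate 2. Il12b region 5, chr11:44195601-44196178, had a fold of 5.32, 4.25, 4.44 and 4.01 in the same order. Both regions were highest in WT 6 h replicate 1 and lowest in KO 6 h replicate 2, with the other KO library between the WT libraries, so the genotypes overlapped. The mean list percentile was 32.2 ± 19.0 for Il12b region 4 and 36.5 ± 13.5 for Il12b region 5 (SD, n = 4), in the lower part of the lists, against 69.9 ± 4.09 for Il6 region 6.

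**Figure D3:**
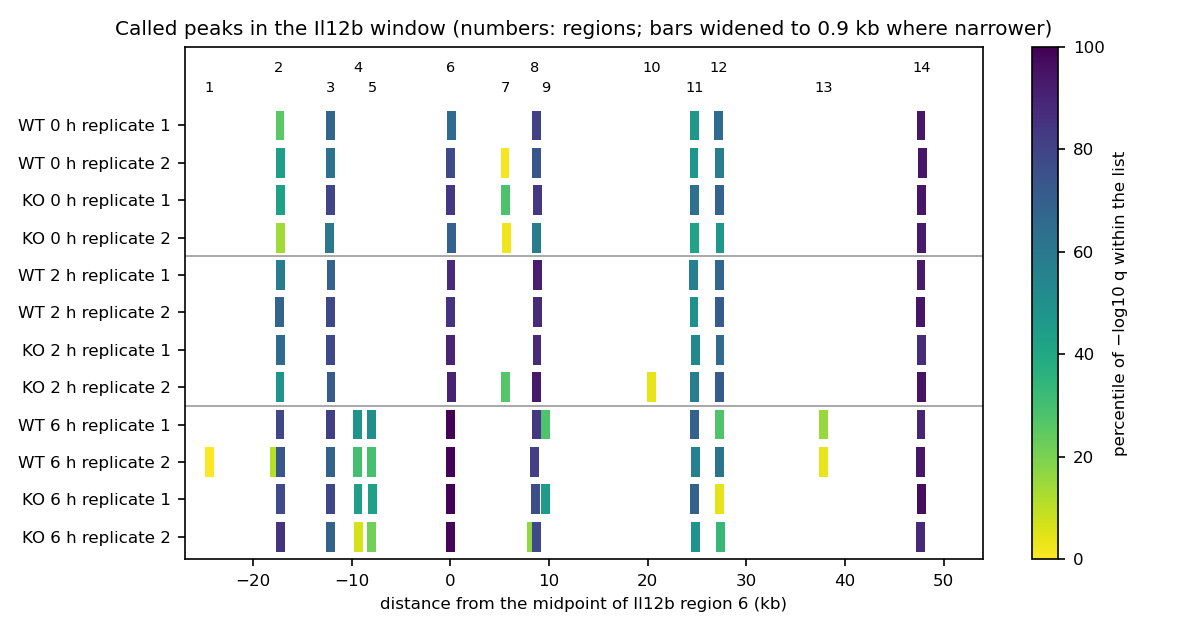
Called peaks in the Il12b window, drawn as for Il6, against the distance in kb from the midpoint of Il12b region 6; numbers mark the 14 regions. Regions 2, 3, 6, 8, 11, 12 and 14 are filled in every line, regions 4 and 5 only in the 4 lines of 6 h, and region 6 darkens from 0 h to 6 h.

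Open in all 12 libraries were 11 of the 27 regions (40.7%), against 37.2% of all regions. They were Il6 regions 2, 9, 11 and 12, or 4 of 13, and Il12b regions 2, 3, 6, 8, 11, 12 and 14, or 7 of 14. To compare them across lists of unequal length, each was ranked by −log10 q among the 42811 regions called in all 12 libraries, as a percentile from 0 to 100 within each library. Rank can move through a region's own signal, through its surroundings or through other regions, and these were not told apart by this measure. An exact permutation test with Benjamini-Hochberg adjustment over all 42811 regions compared 6 h with 0 h, and 2 of the 11 passed, both higher at 6 h and both in the Il12b window. Over all 42811 regions, 6.01% passed as higher at 6 h and 6.57% as lower.

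Il12b region 6, chr11:44203295-44204261, climbed to the top of the ranking. At 0 h its rank was 46.3 and 65.2 in the WT libraries and 75.0 and 61.0 in the KO libraries, each as replicate 1 then 2. At 2 h it was 78.4 and 76.3 in WT and 83.2 and 83.3 in KO, and at 6 h it was 99.2 and 98.9 in WT and 98.8 and 97.6 in KO. The libraries of the 3 times did not overlap, and at 6 h the 4 libraries agreed closely. The mean rank was 61.9 ± 11.9 at 0 h, 80.3 ± 3.51 at 2 h and 98.6 ± 0.716 at 6 h (SD, n = 4), a rise of 36.7 from 0 to 6 h (exact permutation p = 0.000247, adjusted p = 0.0141). Of the regions called in all libraries, 11.4% ranked higher in all 4 libraries at 6 h than in all 4 at 0 h, and 3.72% did so at 2 h. The earlier rise, 18.4 by 2 h, did not pass the test (exact permutation p = 0.145, adjusted p = 0.854). The labels of the 6 h libraries were exchanged in it too, and their higher ranks widen its reference. It could thus hardly call a smaller rise at 2 h, although the libraries of 0 h and 2 h did not overlap.

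The peak over Il12b region 6 also widened, from 705 ± 27.6 bp at 0 h to 794 ± 29.4 bp at 2 h and 935 ± 18.2 bp at 6 h (SD, n = 4). Its −log10 q at 6 h was 104 and 102 in WT and 111 and 84.4 in KO, against 26.1, 36.9, 40.4 and 23.4 at 0 h in the same order. The deposited fold rose less, from 11.1 ± 1.07 at 0 h to 12.8 ± 0.792 at 6 h. Ranked by fold in place of −log10 q, Il12b region 6 stood 10.8 higher at 6 h with an adjusted p = 0.0993 by the same exact permutation test, which ended the call. A deposited −log10 q grows with the number of reads at a given fold, and summit coverage recovered from the deposited values was 36, 49, 52 and 32 reads at 0 h and 141, 134, 159 and 119 reads at 6 h. In WT the background coverage of the libraries was 2.35 and 2.51 reads at 0 h and 2.67 and 2.18 at 6 h, while the KO libraries had 1.77 and 1.43 reads before LPS and 3.35 and 2.17 after 6 h. The part of depth in the rise was not tested.

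Il12b region 2, chr11:44185806-44186869, rose from near the bottom of the ranking. Its rank at 0 h was 5.30 and 18.5 in WT and 18.3 and 5.85 in KO, and at 2 h it was 27.6 and 47.8 in WT and 42.3 and 17.4 in KO. At 6 h it was 60.6 and 49.9 in WT and 53.7 and 73.5 in KO. Every library at 6 h stood above every library at 0 h and at 2 h, while KO 2 h replicate 2 fell among the libraries of 0 h. The mean rose by 47.4, from 12 ± 7.42 to 59.4 ± 10.4 (SD, n = 4; exact permutation p = 0.000494, adjusted p = 0.0175), with 33.8 ± 13.8 at 2 h. The mean fold was 6.34 ± 0.96 at 0 h and 8.49 ± 1.34 at 6 h, and ranked by fold the rise was 28.7 with an adjusted p = 0.154 by the exact permutation test, which ended this call too.

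The remaining 9 always-called regions did not pass the test between 0 and 6 h. Il12b region 12, chr11:44230613-44231337, ranked at 46.4 and 35.7 in WT and 51.4 and 33.2 in KO at 0 h, and at 4.63 and 32.2 in WT and 0.0747 and 8.73 in KO at 6 h. All 4 libraries at 6 h lay below all 4 at 0 h, as for 12% of the 42811 regions, although WT 6 h replicate 2 was only just below KO 0 h replicate 2. Its difference was -30.3 (exact permutation p = 0.021, adjusted p = 0.0938), and its mean fold at 0 h, 7.04 ± 0.902, compared with 4.61 ± 1.47 at 6 h (SD, n = 4).

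Il12b region 8, chr11:44211844-44212874, was highest at the middle time. Its rank was 70.3 and 58.3 in WT and 75.4 and 47.2 in KO at 0 h, 85.1 and 79.4 in WT and 79.4 and 89.1 in KO at 2 h, and 69.6 and 63.2 in WT and 52.8 and 59.9 in KO at 6 h. The 2 h libraries lay above all others, and the 0 h and 6 h libraries overlapped. Of the 42811 always-called regions, 3.72% ranked higher in all 4 libraries at 2 h than in all 4 at 0 h. The share that also ranked above all libraries of 6 h was not computed. The mean rank at 2 h was 20.5 above that at 0 h, which did not pass (exact permutation p = 0.0284, adjusted p = 0.65). Between 0 and 6 h the difference was -1.45 by −log10 q and -29.4 by fold (adjusted exact permutation p = 0.936 and 0.195). At 6 h the library KO replicate 2 had an additional separate peak inside Il12b region 8, and the mean width was 772 ± 201 bp against 524 ± 40.0 bp at 0 h.

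In the Il6 window none of the 4 always-called regions passed the rank test, and single ranks ran from 28.9 to 81.3. Il6 region 9, chr5:30339223-30340147, had a mean rank of 50.0 ± 13.7 at 0 h, 44.0 ± 5.86 at 2 h and 64.2 ± 11.1 at 6 h (SD, n = 4; 6 h against 0 h, exact permutation p = 0.127, adjusted p = 0.284). Its difference was 14.2 by −log10 q and -8.49 by fold, so the direction depended on the value ranked. Its summits fell in separate places, between positions 30339451 and 30339469 in 3 libraries and between 30339734 and 30339853 in the other 9, with 265 bp between them. The 3 libraries were 1 of each time, KO 0 h replicate 1, KO 2 h replicate 2 and WT 6 h replicate 2. Il6 region 10, chr5:30341098-30341498, lay 950 bp from region 9 and was called in 10 libraries at a fold of 3.16 to 4.66.

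Il6 region 2, chr5:30274551-30275308, ranked at 72.1 ± 7.69 at 0 h and 55.9 ± 7.97 at 6 h, a difference of -16.2 (exact permutation p = 0.0563, adjusted p = 0.17) that was -34.9 when ranked by fold (adjusted exact permutation p = 0.0776). Its mean fold was 10.9 ± 1.08 at 0 h, 11.1 ± 1.63 at 2 h and 7.61 ± 0.869 at 6 h. All 4 folds at 6 h, which reached 8.74, lay below the lowest at 0 h, 9.40, though KO 2 h replicate 1 had 8.70. Il6 regions 11 and 12, chr5:30362384-30362989 and chr5:30366325-30366877, differed by -11.8 and -12.4 in rank with adjusted p = 0.282 and 0.268 by the exact permutation test. Il12b region 14, chr11:44251047-44252004, had folds of 12.1 to 16.1, the upper one the highest single fold of either window, and a mean rank of 91.0 ± 0.343 at 0 h and 85.6 ± 6.40 at 6 h (SD, n = 4; adjusted p = 0.334 by the same permutation test). Il12b regions 3 and 11, chr11:44191340-44191927 and chr11:44228080-44229061, differed between 0 and 6 h by -0.198 and 2.90 in rank. Ranked by fold, the difference was -31.5 at Il12b region 3 (adjusted exact permutation p = 0.0721), which did not pass. All 4 folds of this region at 6 h, 6.54 to 7.91, lay below all 4 at 0 h, 8.92 to 11.7. For this separation of folds, here and at Il6 region 2, the share over all always-called regions was not computed.

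**Figure D4:**
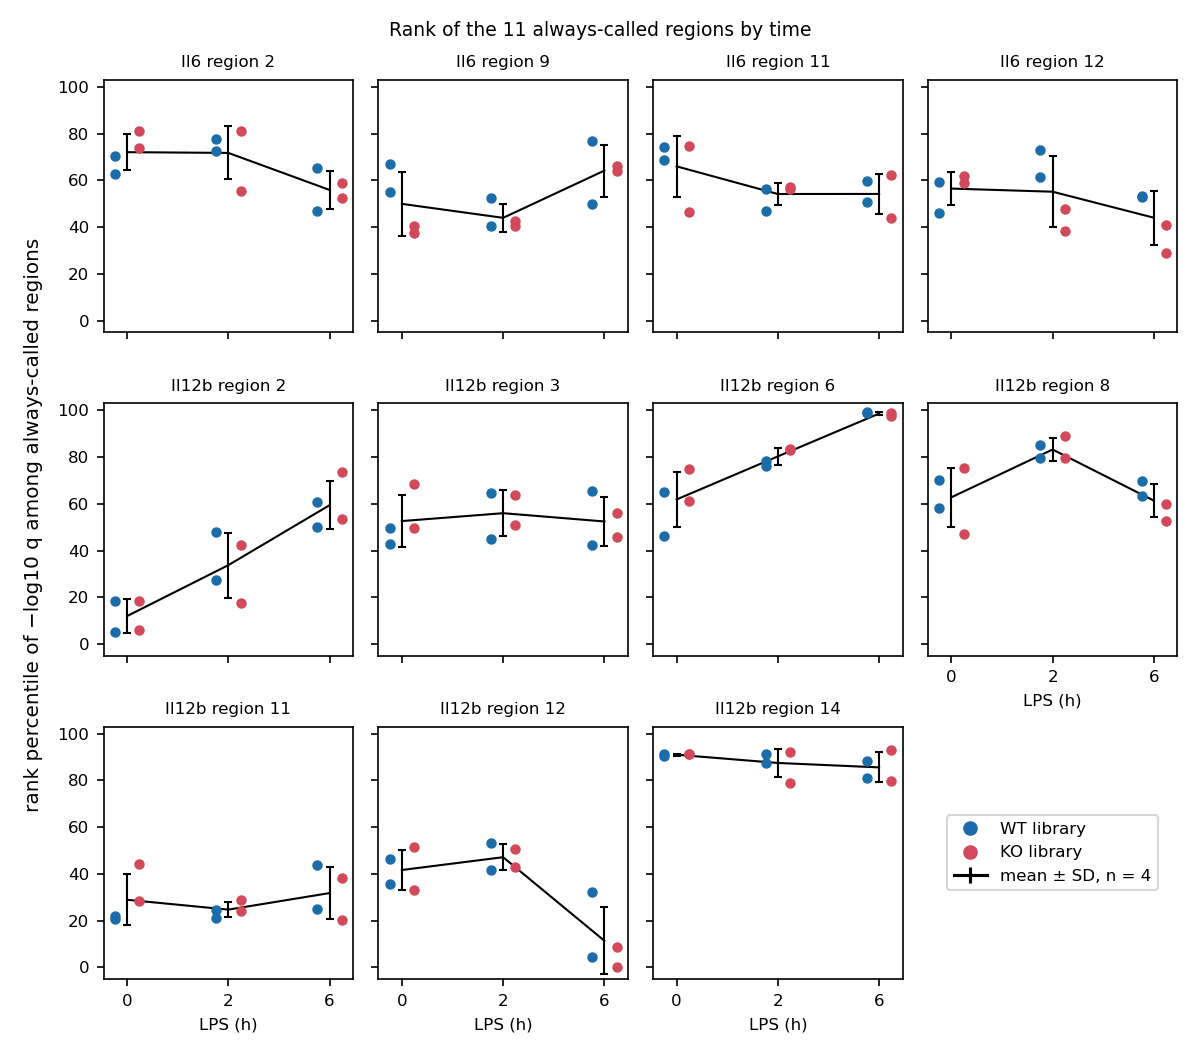
Rank percentile of −log10 q among the 42811 regions called in all 12 libraries, against hours of LPS, for the 4 always-called Il6 regions (top row) and the 7 of Il12b (lower rows); points are libraries, WT in blue and KO in red, and lines join the mean ± SD of 4 libraries. Il12b region 6 climbs from a mean of 61.9 to 98.6 and Il12b region 2 from 12 to 59.4, while Il12b region 12 has a mean of 11.4 at 6 h with no passing test.

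At many of these regions the local background was higher at 6 h than at 0 h. The local background, the expected coverage against which the authors' caller set each summit, was recovered from the deposited fold and p and divided by the lowest background of the same library. Its median over the 42811 always-called regions was 2.25 at 0 h, 2.29 at 2 h and 2.40 at 6 h. This measure was chosen after values had been seen, neighbouring regions may share reads, and the sources used here do not give the distance over which the caller took its background. They also do not say whether a region's own reads enter its local background. A higher value may thus come from the region's own peak, from its surroundings or from both, and these were not told apart.

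At Il12b region 6 the ratio was 1.11 and 1.32 in WT and 1.86 and 1.59 in KO at 0 h, and 3.63 and 4.06 in WT and 3.64 and 4.09 in KO at 6 h. At Il12b region 2 it was 1.0 and 1.0 in WT and 1.08 and 1.0 in KO at 0 h, and 2.79 and 2.99 in WT and 2.33 and 2.26 in KO at 6 h. Neither region's groups overlapped, and at rest Il12b region 2 sat at or next to its libraries' lowest background. Il12b region 3 went from 1.49 ± 0.192 to 3.19 ± 0.205 and Il12b region 8 from 1.95 ± 0.152 to 3.64 ± 0.281 (SD, n = 4 libraries at 0 and 6 h). At Il6, region 9 went from 1.59 ± 0.123 to 2.93 ± 0.272 and region 2 from 2.07 ± 0.162 to 2.94 ± 0.117. At 2 h the mean ratio of these 6 regions was still nearer to its 0 h than to its 6 h value.

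By rank of local background among the always-called regions, 9 of the 11 passed the exact permutation test between 0 and 6 h with Benjamini-Hochberg adjustment, 6 higher and 3 lower at 6 h. Over all 42811 regions, 13.6% passed as higher and 16.3% as lower. The 6 were Il12b regions 6, 2, 3 and 8, with rises of 50.7, 48.8, 39.4 and 31.3 (adjusted exact permutation p = 0.00621, 0.00621, 0.00964 and 0.0081), and Il6 regions 9 and 2, with rises of 30.8 and 16.6 (adjusted exact permutation p = 0.0187 and 0.0342). In each of the 6, all 4 libraries at 6 h stood above all 4 at 0 h, as for 16.8% of the 42811 regions. The 3 lower ones were Il6 regions 11 and 12, at -16.9 and -14.6 (adjusted exact permutation p = 0.0111 and 0.0125), and Il12b region 12, at -6.53 (adjusted exact permutation p = 0.0312). Il12b regions 11 and 14 did not pass (adjusted exact permutation p = 0.0577 and 0.647).

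In the Il12b window the always-called regions with a higher local background, 2, 3, 6 and 8, followed each other in position. Gained regions 4 and 5 and region 7 lay among them. Regions 4 and 5 had no value at 0 h and region 7 had none at 6 h, so no change is known there. In the Il6 window, some regions between regions 2 and 9 had low ratios at 6 h. The ratio was 1.0, 1.0, 1.02 and 1.3 at gained region 4 and 1.0 in all 4 libraries at region 8. The other regions between Il6 regions 2 and 9 stood higher in the 6 h libraries that called them. Their ratios were 2.79 to 3.12 at gained region 3, 1.55 to 2.37 at region 5, 1.52 to 2.21 at gained region 6 and 1.73 at region 7. Il6 regions 11 and 12 and Il12b regions 11, 12 and 14, all on the high-coordinate side, did not pass as higher. A higher local background lowers a fold at the same summit coverage, and how far it sets the ranks by fold given above was not tested.

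**Figure D5:**
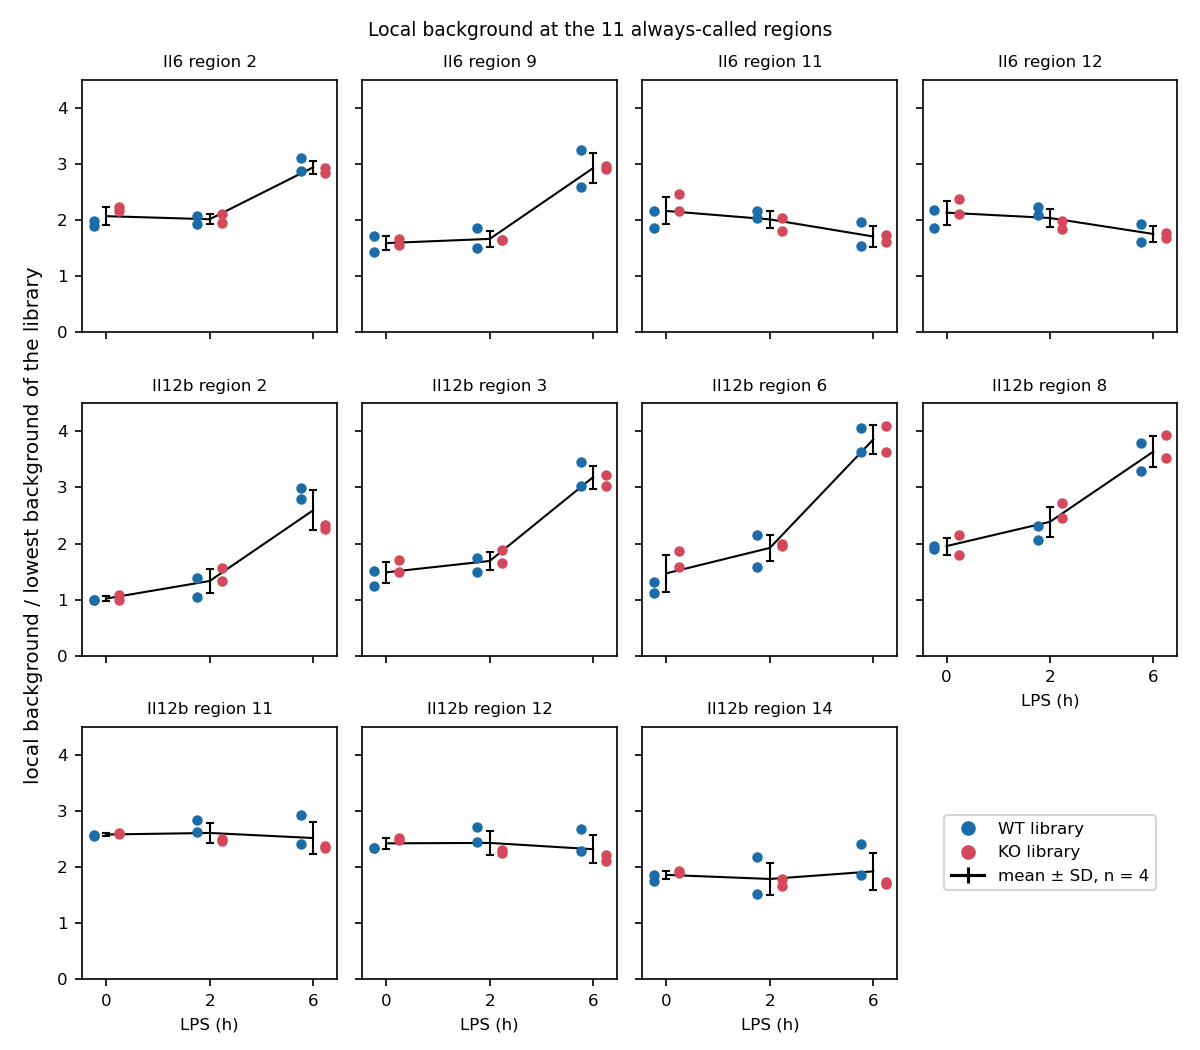
Local background of each always-called region divided by the lowest background of the same library, against hours of LPS; points are libraries, WT in blue and KO in red, and lines join the mean ± SD of 4 libraries. Il12b regions 2, 3, 6 and 8 and Il6 regions 2 and 9 are higher at 6 h in every library, with the largest mean, 3.86, at Il12b region 6, and Il6 regions 11 and 12 are lower on average.

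Between the genotypes, no difference in the number of called regions passed a test in either window. WT libraries had 7.0 ± 2.76 Il6 regions and KO libraries 7.5 ± 3.08 (SD, n = 6, 3 times in each), a difference of 0.5 (exact two-sided permutation test with genotype labels exchanged within time, p = 0.583, adjusted p = 0.874). It was -0.4 without KO 6 h replicate 1, the library with 12 Il6 regions and the highest background coverage. The genotypes then had unequal numbers of libraries at 6 h, and the means were not weighted by time. The value of -0.4 thus also holds the difference between times and does not show a reversal between genotypes. In the Il12b window the means were 8.5 ± 1.97 in WT and 8.5 ± 1.05 in KO, a difference of 0 (p = 1.0 by the same exact test). With 2 libraries per genotype and time, these tests cannot give a p below 0.00926, and small differences were not detectable.

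The rank of the always-called regions also gave no genotype call. The mean KO minus WT difference over the 11 regions ran from -11.5 at Il6 region 12 to 5.77 at Il12b region 6, and the exact permutation test called 0 of the 11 after adjustment. It called 0 of all 42811 regions too (0%), with 2720 at an unadjusted p under 0.05. With a smallest possible p of 0.00926, at least 7929 regions would have had to pass together for any adjusted call, so this rank test could hardly make one. In no member did all 6 KO libraries rank above all 6 WT libraries or the reverse, which 0.175% of the 42811 regions did.

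Nor was any member called in all 6 libraries of one genotype and none of the other, a class whose share of all regions was not computed. Within a time, 3 of the 27 regions were called in both libraries of one genotype and neither of the other, which with 2 libraries against 2 has no test. Of all regions, 0.505%, 1.22% and 1.91% were KO-only at 0, 2 and 6 h, and 2.45%, 1.34% and 1.2% were WT-only. The count of 3 is pooled over all these classes, so it is to be set against their shares together and not against any single share. Il6 region 10 was such a WT-only region at 0 h, a class that held 2.45% of all regions. Its fold at 0 h was 3.65 in WT replicate 1 and 4.51 in WT replicate 2, and its −log10 q was 4.24 and 8.17. At 2 h and 6 h all libraries of both genotypes called it, with KO folds of 4.66 and 4.58 at 2 h against WT folds of 3.65 and 4.07. The KO libraries that missed it at 0 h had background coverages of 1.77 and 1.43 reads, the lowest of the 12, and the part of depth in this difference was not tested.

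Il6 region 8, chr5:30320084-30320525, was KO-only at 2 h, as were 1.22% of all regions. Its fold at 2 h was 4.75 in KO replicate 1 and 4.45 in KO replicate 2, and neither WT library called it. It was also called in KO 0 h replicate 1, with a fold of 5.41, so 3 of 4 KO libraries and 0 of 4 WT libraries held it before 6 h. At 6 h all 4 libraries called it, with folds of 5.72 and 6.60 in WT and 6.44 and 8.20 in KO, which overlapped between the genotypes. By −log10 q they did not overlap at 6 h, with 9.71 and 11.3 in WT and 14 and 16.3 in KO, nor by width, with 298 and 302 bp in WT and 370 and 438 bp in KO. These differences of 2 libraries against 2 have no test. How many of all regions separate the genotypes in such ways at 6 h, or in calls before 6 h, was not computed. They are thus not shown to be particular to Il6 region 8. The WT libraries at 2 h had background coverages of 3.03 and 2.32 reads and the KO libraries 2.79 and 3.04. Without KO 0 h replicate 1, Il6 region 8 counted as gained by 6 h.

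Il12b region 13, chr11:44241444-44241666, was WT-only at 6 h, against 1.2% of all regions. Its fold was 4.63 in WT replicate 1 and 4.09 in WT replicate 2, with a −log10 q of 6.37 and 4.34, low in both lists, and no other library called it. No member was KO-only at 0 h (0.505% of all regions) or at 6 h (1.91%), or WT-only at 2 h (1.34%).

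The other 8 regions were weak and irregular. In the Il6 window, region 1 was called in 3 libraries at 2 or 6 h, region 5 in 3 libraries at 6 h, region 7 in KO 6 h replicate 1 and region 13 in replicate 1 of both genotypes at 6 h, at folds of 2.95 to 4.36. In the Il12b window, region 1 was called in WT 6 h replicate 2, region 9 in replicate 1 of both genotypes at 6 h and region 10 in KO 2 h replicate 2, at folds of 3.44 to 3.88. Il12b region 7, chr11:44209195-44209590, ran the other way, with calls from 3 of 4 libraries at 0 h, from KO replicate 2 at 2 h and from none at 6 h. Its fold was 3.25 in WT 0 h replicate 2, 4.71 in KO 0 h replicate 1, 3.98 in KO 0 h replicate 2 and 3.94 in KO 2 h replicate 2. WT 0 h replicate 1 missed it, and without that library Il12b region 7 would count as lost by 6 h.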

How the data were processed

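ATAC-seq peak lists of 12 libraries were used, 2 per genotype and time, grouped by the labels. Alignment and peak calling used Bowtie2 (2.1.0), Picard and MACS2 on mm9, per the submitters' processing notes, and the deposited peak names show 1 library per list. The sources used here do not give the settings or the treatment of duplicate reads and of the Tn5 offset. Duplicates, if kept, would raise the values of a peak. For every peak, the authors' fold is a ratio of summit over local background. The −log10 p and −log10 q were made by the authors' caller from the same summit and background before they were deposited. The score was also written by the authors' caller before deposit, from the −log10 q, and was not used. All served to describe or rank peaks within a list.

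From these, calls per region, ranks and exact two-sided permutation tests were computed with Python 3.11.15, numpy 2.4.6, pandas 2.3.3 and scipy 1.17.1, and plots with matplotlib 3.10.9. A region took its peak with the highest −log10 q in a library. Time labels of all 3 times were exchanged within genotype (8100 arrangements, smallest exact p = 0.00025) and genotype labels within time (216 arrangements, smallest exact p = 0.00926). Tests of 2 h against 0 h thus include the 6 h libraries, and a large change at 6 h leaves them little able to call a smaller one at 2 h. Adjustment was by Benjamini-Hochberg, with 0.05 as threshold. Summit coverage and local background were solved from the deposited fold, coverage plus 1 over background plus 1, and its Poisson p; for 100% of peaks the log10 of this p was matched to within 0.001. Depth per library is known only as background coverage, 1.43 to 3.35 reads; calls have no counting interval. The code was tested on simulated data.

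Regions described one by one were those called in all 12 libraries, gained or lost, or separating the genotypes; Il12b region 7 was added after its values were seen. The members and lists were chosen with earlier results of these data known. Alternatives were peaks of −log10 q of at least 5, equal list lengths, coverage scaled to the lowest background, stricter chaining, regions wholly inside the window, covered length, fold, summit coverage, the widest peak, a replicate block and leaving out each library.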

Additional observations from a re-analysis of the deposited data

Results flagged for a closer look

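In 4 of the 39 groups of 4 libraries tested, 1 library stood apart from the other 3 by Dixon's gap criterion. Chance alone flags about 1 in 20 groups of continuous values. That rate does not apply to the 3 counts of regions below, where the other libraries are tied and any difference stands apart. In the Il6 window at 0 h, KO 0 h replicate 2, the library with the lowest background coverage, had 4 regions and the others 5. In the Il12b window at 0 h, WT 0 h replicate 1 had 7 regions and the others 8, the missing one being region 7. In the Il12b window at 2 h, KO 2 h replicate 2 had 9 regions and the others 7, through regions 7 and 10. Il6 region 11 had a rank of 47.0 in WT 2 h replicate 1, below the 56.4 to 57.1 of the others. These counts differ by 1 or 2 regions.

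Il6 region 12 moved in opposite directions between 0 and 2 h in the genotypes: its mean rank changed by 14.6 in WT and by -17.4 in KO, a KO minus WT difference of -32.0. Both WT libraries at 2 h, at 61.6 and 73.0, ranked above both WT libraries at 0 h, and both KO libraries at 2 h, at 38.6 and 47.6, ranked below both at 0 h. Every always-called member was searched for such an opposite change, at 2 h and at 6 h, so Il6 region 12 was picked by its values. How many of all always-called regions show such a change was not computed, and the difference was not tested.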

How the results depend on the processing

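The rise of the Il6 window by 6 h kept its direction under every alternative run, from 5.58 to 6.25 regions with 1 library left out. Adjusted over the 6 window tests, it lost its call with equal list lengths (2 regions, exact permutation p = 0.0111, adjusted p = 0.0666) and kept it under the others. With equal list lengths, 1 region was gained at Il6 and 0 at Il12b, and the Il12b rise was 0.25 regions (exact permutation p = 0.8). With labels exchanged only within replicate numbers (replicate block) the Il12b rise stayed 2.5 regions with exact p = 0.0556. The block also ended the local background call of Il6 region 2 (adjusted exact permutation p = 0.0776) and no other call. In a check of whether replicate numbers pair the libraries across groups, correlations ran from -0.0118 to 0.0348 in 15 pairs, which gave no sign of pairing. By covered length the Il12b difference between 0 and 2 h turned to +420 bp (exact permutation p = 0.588). With 1 library left out, the Il6 genotype difference ran from -0.4 to 1.3 regions, gained regions at Il6 from 3 to 4, and regions lost by 6 h at Il12b from 0 to 1. Leaving out a library unbalances the times between the genotypes, so the range of the genotype difference also holds the difference between times.

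Ranked by fold, 0 of the 11 regions were called and Il6 region 9 reversed to -8.49. Ranked by summit coverage, chosen after seeing the data, Il12b regions 6 and 2 rose by 49.7 and 50.8, and Il12b regions 3, 8 and 11 reversed to 17.4, 13.3 and -0.499. With 1 library left out, Il12b regions 3, 8 and 11 ran from -4.55 to 5.05, -6.66 to 2.73 and -1.09 to 8.04, and Il12b regions 6 and 2 stayed called. The cause of these changes was not tested. Over all 42811 regions the rank test called 5386, against 8124 by summit coverage, 4280 by fold, 1478 in the block and 2612 to 3864 with 1 library left out. Calls of local background numbered 6 to 10 with 1 library left out. Il6 region 2 and Il12b region 12 lost theirs in several of these runs (adjusted exact permutation p up to 0.079 and 0.118). Il6 region 9 lost its call without WT 0 h replicate 1 (adjusted exact permutation p = 0.0541). Il12b region 11 became called without WT 6 h replicate 2 or KO 0 h replicate 1 (adjusted exact permutation p = 0.0319 and 0.0477). Calls depend on depth, and gained regions of low −log10 q lie near the calling limit.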
